A study of Drosophila melanogaster with 3 samples.

Results

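The 500 strongest Pipsqueak binding regions of the wandering Drosophila melanogaster larva were taken from the list of binding sites that the authors' reproducibility step retained (the optimal list, on genome build dm6). Its 9459 entries were merged where they overlapped by at least 1 bp, which gave 7590 regions, and each region was scored by the highest signal value of its entries. The 500 regions with the highest score were kept, which left 7090 other regions. The members were thus chosen by their measured signal, so signal, and with it width, number of entries and rank in each replicate, are given as a description without a test.

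The 3 samples were biological replicates of 1 group. All came from whole larvae at the wandering stage of the third instar, males and females pooled, of a transgenic line that stably expressed psq fused at its C terminus to GFP (eGFP in some labels), and chromatin was precipitated with an antibody against GFP. Chromatin was sonicated to a size range of 200 to 800 bp. For the promoter of the fusion, any copies of psq that the line carried beside it and the number of animals in a pool, the sources used here gave nothing. No other genotype, stage or tissue was compared, and a control precipitation was not analysed here. The lists hold no read counts, so the depth of the samples is unknown.

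Pipsqueak carries a BTB domain, through which such proteins associate with one another, and a Psq DNA-binding domain that recognises GAGA repeats. It belongs with the GAGA factor encoded by Trl to the proteins that bind such repeats at Polycomb response elements, promoters and chromatin boundaries, and it is known from egg patterning, eye development and chromatin silencing. In a whole larva the binding of all tissues is averaged, and strong binding in few cells cannot be told apart from weaker binding in many.

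Windows of 101 bp around the lead summit, the summit of the highest entry of a region, are shown for members among the 40 strongest, to let the GA-rich and the GA-poor kinds be read beside each other. Each is the plus strand of release 6 (dm6) as given by RefSeq, the summit is base 51, and the name is the gene that holds the summit. The first 5 held GAGAG, the core of the GAGA repeat, and capitals mark it on either strand.
CG1910, rank 2, chr3R:31748369-31748469: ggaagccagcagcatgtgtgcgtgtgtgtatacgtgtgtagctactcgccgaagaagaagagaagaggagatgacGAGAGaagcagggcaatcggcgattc
InR, rank 5, chr3R:21605560-21605660: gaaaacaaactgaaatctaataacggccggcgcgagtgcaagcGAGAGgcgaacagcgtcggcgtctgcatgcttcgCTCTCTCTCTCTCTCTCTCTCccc
wts, rank 6, chr3R:30794879-30794979: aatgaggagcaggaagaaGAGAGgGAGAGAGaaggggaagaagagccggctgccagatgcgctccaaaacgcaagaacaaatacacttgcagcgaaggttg
crol, rank 7, chr2L:11806925-11807025: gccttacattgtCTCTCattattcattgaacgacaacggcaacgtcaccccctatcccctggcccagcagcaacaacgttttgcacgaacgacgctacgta
Eip75B, rank 27, chr3L:18011875-18011975: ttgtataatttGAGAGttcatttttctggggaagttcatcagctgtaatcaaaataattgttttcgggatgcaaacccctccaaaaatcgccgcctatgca
In wts the core stood among other purines on the plus strand, and in InR a run of alternating C and T lay on the far side of the summit. Crol and Eip75B held 1 core each, away from the summit.

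The next 4 windows held no GAGAG but held AAGAAG, a 6-mer of purines that was picked out after the values of all 6-mers were seen, and capitals mark it on either strand.
upSET, rank 9, chr3L:14002903-14003003: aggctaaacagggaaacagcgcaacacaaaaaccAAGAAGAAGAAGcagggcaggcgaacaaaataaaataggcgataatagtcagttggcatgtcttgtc
CG3726, rank 14, chrX:5918849-5918949: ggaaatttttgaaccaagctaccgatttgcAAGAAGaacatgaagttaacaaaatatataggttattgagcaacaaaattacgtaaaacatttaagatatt
larp, rank 30, chr3R:28326551-28326651: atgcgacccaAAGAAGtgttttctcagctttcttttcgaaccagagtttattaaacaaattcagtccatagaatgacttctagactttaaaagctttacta
tay, rank 35, chrX:15886724-15886824: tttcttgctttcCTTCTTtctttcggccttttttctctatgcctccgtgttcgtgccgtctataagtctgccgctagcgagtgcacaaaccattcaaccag
The last pair held neither and carry no capitals. They differ widely in base composition, with 23.8% GC at the region of rank 3, which lies outside any protein-coding gene and 466 bp from the start of lncRNA:CR44619, and 59.4% GC at MEP-1.
region of rank 3, chrX:12752283-12752383: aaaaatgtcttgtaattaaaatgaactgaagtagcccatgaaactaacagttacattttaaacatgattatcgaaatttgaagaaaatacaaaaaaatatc
MEP-1, rank 4, chr3L:2632774-2632874: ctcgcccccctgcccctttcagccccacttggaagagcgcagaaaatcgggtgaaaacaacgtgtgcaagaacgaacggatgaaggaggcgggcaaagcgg
Of the 500 strong windows, 183 held GAGAG or AAGAAG, and 30 held both. Of the windows at the 7090 other regions, 1635 held GAGAG or AAGAAG, and 127 held both. Most windows of either set thus held neither, but the strong set had the larger shares.

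The 500 regions made up 6.59% of all regions and 27.3% of the summed lead signal. The signal, whose scale is not stated, ran from 1472 to 14175 with a median of 2066 and quartiles of 1684 and 2765. The other regions ran from 191 to 1471 with a median of 355. No gap marked the limit. The last members lay at POSH, CG32369, Mnt, tou and Vha55 with signals of 1478.5 down to 1472.3, and the first regions outside lay at Prp16, Pdcd4, Obp56h, CG34460 and CG43658 with signals of 1470.7 down to 1466.9.

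**Figure D1:**
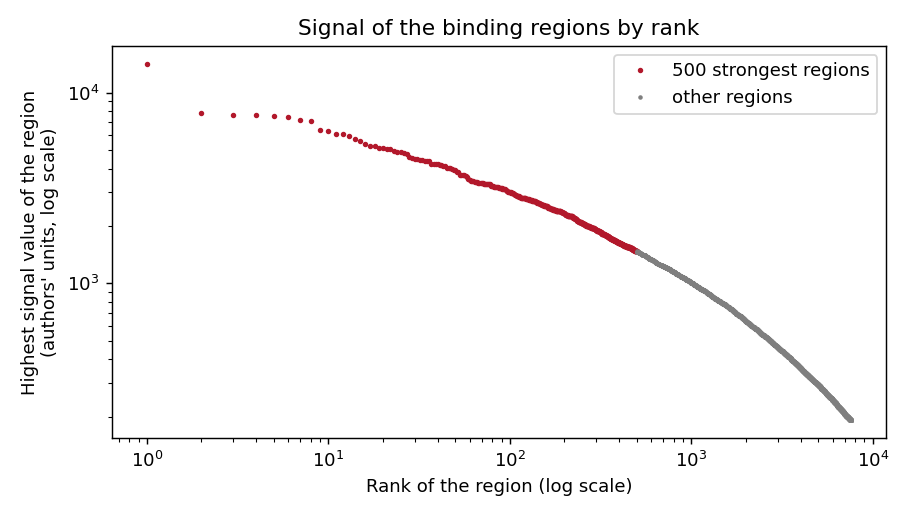
Highest signal value of each of the 7590 regions (vertical axis, authors' units, log scale) against its rank (horizontal axis, log scale), with the 500 strongest in red and the others in grey. The first region stands at 14175, above the next at 7829, and the values pass the limit near 1472 without a step.

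The strong regions were broader than the rest and more of them joined several entries. Their median width was 710 bp (quartiles 515 and 976, range 326 to 3455) against 520 bp for the others. Both quartiles of the others were also 520 bp, so many of them shared 1 width. Whether the calling set that width was not tested. Several entries were joined in 298 strong regions (59.6%) against 19.8% of the others. Among regions of 1 entry the medians were 508 and 520 bp. The broadest member was the region of upSET at 3455 bp, and the narrowest that of Hsp83, a heat shock protein gene, at 326 bp. Regions at Amun and tara joined 6 entries each. Width did not follow one rule in the replicates' own lists, each cut to its 9459 highest entries and merged the same way. There the 500 strongest were narrower than the rest in replicate 1 (median 394 against 456 bp) and broader in replicates 2 and 3 (826 against 540 bp and 674 against 504 bp).

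Every member overlapped an entry in all 3 replicate lists. Ranked among all 7590 regions by each replicate's own signal, 325 members were within the first 500 in all 3 replicates, and no other region was. The lowest ranks were 2133 in replicate 1, 817 in replicate 2 and 758 in replicate 3. The optimal list was derived from these replicates, so this likeness is in part built in. The signal in the replicate's own list ran over the members from 160 to 4069 (median 505) in replicate 1, from 506 to 5172 (median 913) in replicate 2 and from 395 to 5081 (median 700) in replicate 3. The medians of the other regions were 96.0, 154 and 116. Replicates 2 and 3 ordered the members more alike than either did with replicate 1, with a median difference in rank of 44.0 places between replicates 2 and 3, 122 between 1 and 2 and 148.5 between 1 and 3. The member with the lowest rank in replicate 1 lay in aop, which encodes the ETS repressor Yan, and ranked 2133, 356 and 276 in the 3 replicates.

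**Figure D2:**
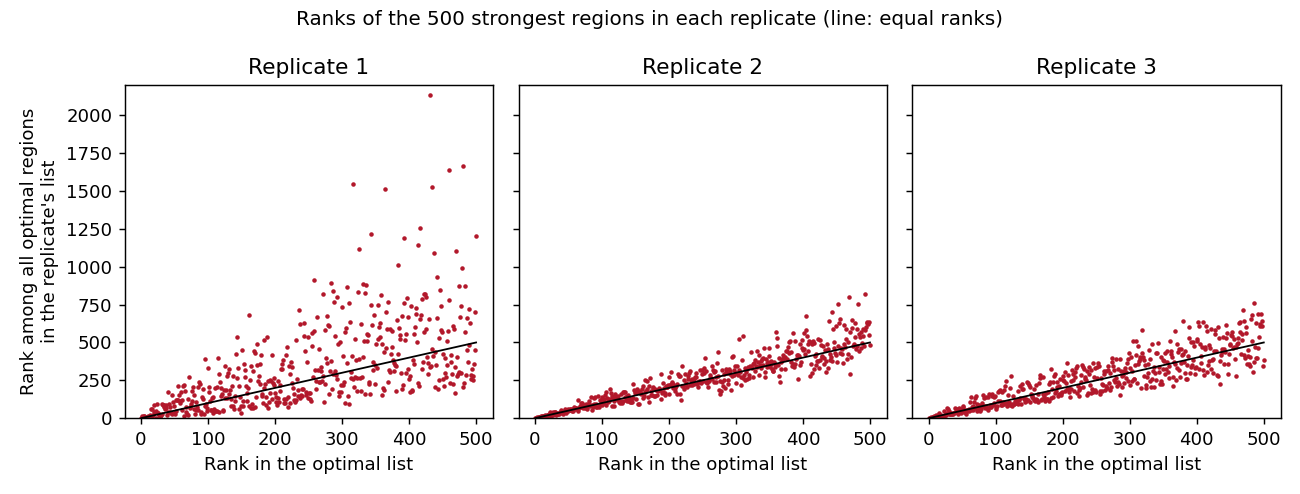
Rank of each of the 500 strongest regions among all regions in each replicate's list (vertical axis) against its rank in the optimal list (horizontal axis), with a line at equal ranks. The points spread widely in replicate 1, down to rank 2133, and stay closer to the line in replicates 2 and 3, down to ranks 817 and 758.

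The members on which replicate 1 and the others differed had different base composition and location. The members were split by rank after these values had been seen, so the split is a description. The 203 members that ranked better in replicate 1 than in both other replicates had a mean GC content of 30.4% at the summit, and 67.0% of them lay at promoters. The 259 that ranked worse there than in both others had 44.9% GC, and 42.1% lay at promoters. The first kind was narrow, with a median width of 514 bp, and held GAGAG in 10.3% of windows. The other was broad, with a median of 846 bp, and held GAGAG in 31.3%. The region 91 bp from the start of CG14100 and within 1 kb of ash1, a trithorax group histone methyltransferase gene, was of the first kind, with 29.7% GC and ranks of 3, 41 and 51. The region in Cam, the calmodulin gene, was of the other, with 42.6% GC and ranks of 90, 20 and 11.

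Strong regions were found more often at promoters and less often between genes than the other regions. A lead summit within 500 bp of an annotated start site was seen in 263 strong regions (52.6%) and in 42.5% of the others. Within 200 bp the shares were closer, at 31.2 and 28.9%. In the replicates' own lists the strong shares were 56.4, 48.2 and 51.2% against 42.4, 41.7 and 43.1% for the rest, which is a difference of 9.51 ± 3.94 percentage points (SD, n = 3) and higher in 3 of 3. Intergenic summits numbered 29 (5.80% against 14.7% of the others). In the replicates they made up 6.60, 6.80 and 6% of the strongest and 14.5, 15.4 and 14.5% of the rest, so the groups did not overlap. With 3 replicates an exact two-sided sign-flip permutation test cannot give a p below 0.25, which both differences reached, and no difference of this design can pass 0.05.

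Introns held 194 lead summits (38.8%), close to the 39.7% of the other regions. The replicates differed in direction, with 33.8, 42.0 and 39.4% of the strongest against 40, 39.7 and 39.1% of the rest. Which introns were bound differed more. First introns took 76.8% of the intronic strong summits and 65.5% of the other intronic summits, and the replicates' lists gave 77.8 ± 2.97% and 65.9 ± 0.684% (SD, n = 3), higher in 3 of 3. Intronic strong summits lay a median of 2278 bp from the nearest protein-coding start site, against 3711 bp for the others, a difference in the same direction in 3 of 3 replicates. Of the remaining members, 7 lay in other exons, 6 in 5' UTRs and 1 in a 3' UTR. No strong summit lay in a coding exon, where the other regions had 15 (0.212% of them). With a share that small, the absence among the strong summits is little to read from.

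Over all members the median distance to a protein-coding start site was 543 bp, against 1102 bp for the other regions. The replicates gave 350, 754 and 647 bp against 1049, 1156 and 1080 bp. Members beyond 3 kb of such a site made up 23.2% against 34.2%. The most distant were intronic, in CG42238 at 40584 bp, in tai, the gene of an ecdysone receptor coactivator, at 35062 bp, and in jing, a zinc finger gene of the Polycomb group list, at 28155 bp. The strongest intergenic members had ranks 10 and 12, nearest to the starts of Ppa and CG13323 at 7983 and 11903 bp.

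**Figure D3:**
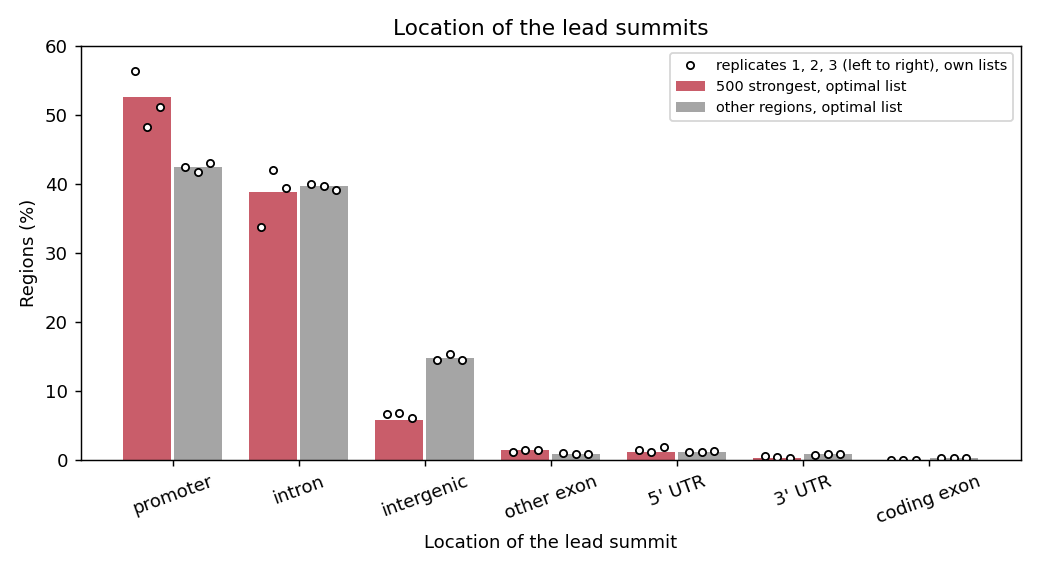
Share of regions (vertical axis, percent) by location of the lead summit (horizontal axis) for the 500 strongest (red bars) and the other regions (grey bars) of the optimal list, with each replicate's own list as open circles. Promoter shares are 52.6% and 42.5%, intergenic shares 5.80% and 14.7%, and intron shares 38.8% and 39.7%.

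Location changed little with rank inside the 500 at the scale of 100 regions. In groups of 100 from the strongest down, promoters held 51, 51, 52, 57 and 52%. Mean GC content went from 41.4% in the first group to 37.0% in the last, and median width from 912 to 606 bp. The 40 strongest stood apart in location, with 14 summits at promoters, 22 in introns, 2 in 5' UTRs and 2 between genes. Their promoter share was thus below the 42.5% of the other regions, and their intron share above the 39.7%.

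The strong regions were spread over the major arms, with 3.36 per Mb on X, 3.66 on 2L, 3.88 on 3L, 3.93 on 3R and 3.95 on 2R. Arm 4 had none, and 19 of the other regions (0.268%), a share too small for the absence to be read as a difference. The X held 79 strong regions, which is 15.8% against 19.6% of the others. In the replicates the X shares were 17.4, 17.0 and 16.6% of the strongest and 20.1, 19.7 and 18.8% of the rest, lower in 3 of 3. Arm 3R held 126, or 25.2% against 22.1%, and was higher in 3 of 3 replicates. A further strong region lay within 50 kb of 296 members (59.2%), and the median distance to the nearest was 33.5 kb. In the replicates' strongest regions the share was 55.4, 59.4 and 61.8%. No matching share was computed for the other regions, so clustering was not tested.

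Base composition at the strong summits leaned to high GC in the optimal list and in replicates 2 and 3, but not in replicate 1. Mean GC content was 38.8% against 36.8% for the other regions. The replicates went both ways, with 35.5 against 37.0% in replicate 1, 39.0 against 37.0% in replicate 2 and 40.7 against 37.8% in replicate 3. When all regions were cut at 30.7 and 41.6% GC into 3 classes of about equal size, 235 members fell in the high class (47.0% against 34.9% of the others), 119 in the middle class (23.8% against 34.3%) and 146 in the low class (29.2% against 30.9%). In the replicates' strongest regions the low class held 39.6, 29.8 and 23.2%, the middle class 29.2, 24.2 and 24.0% and the high class 31.2, 46.0 and 52.8%. Low-GC members lay nearer to starts, at a median of 285 bp with 61.6% at promoters, and had a median width of 526 bp. High-GC members lay at 746 bp with 47.2% at promoters, and had a median width of 831 bp. At promoters the strong and other summits had 37.1 and 37.3% GC, while in introns they had 41.0 and 36.9%.

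GAGAG was found in 114 strong windows (22.8%) and in 15.4% of the others. The replicates gave 17.0, 23.2 and 26.2% against 14.4, 16.1 and 16.4%, higher in 3 of 3 and least so in replicate 1. At points 500 bp to either side of the summits the shares were 14.6 and 13%. The longer GAGAGAG was present in 7.80% of strong and 3.62% of other windows. GGAAG, which has the same letters as GAGAG in another order, was present in 19.0 against 11.9% at summits and 12.3 against 13.5% in the flanks, so the difference at summits was 7.11 percentage points for GGAAG and 7.43 for GAGAG. The difference for GAGAG was larger in introns (29.4 against 15.9%) than at promoters (19.0 against 15.3%), and higher in the replicates' lists in 3 of 3 for introns and in 2 of 3 for promoters. The difference between the classes was not tested. Within GC classes the shares were 35.7 against 28.6% in the high class, 16.8 against 11.5% in the middle and 6.85 against 4.75% in the low class.

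Purine runs in general were more frequent at the strong summits. Of 2016 6-mers, each counted with its reverse complement and present in at least 1% of the other windows, 8.18% (165) were at least 1.5 times as frequent at strong summits and higher in 3 of 3 replicates, and 12.8% (258) were lower by the same rule. Of the 64 made of purines on 1 strand, 40 were among the higher and 0 among the lower. The 165 were also richer in GC, averaging 4.0 G or C bases where all 6-mers compared averaged 2.95. AAGAAG had the largest difference. It was present in 99 strong windows (19.8%) and 9.48% of the others, and in 12.6, 19.6 and 19.6% against 9.13, 9.30 and 8.97% in the replicates. In the flanks it stood at 6.80 and 6.83%. In the high GC class the shares were 29.4 and 11.7%, and in the low class 6.85 and 6.67%, so there the groups were close.

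The 2 motifs differed in where they lay. In windows of 51 bp, AAGAAG reached 11.4% at the strong summit and averaged 5.50% at 100 bp to either side. GAGAG was less frequent at the strong summit itself, at 12.4%, than 100 bp to either side, at 18.0%. The same order was seen in the 500 strongest of each replicate. AAGAAG had 6.80, 11.4 and 12% at the summit and 4.20, 6.60 and 6.50% at 100 bp, and GAGAG had 8.40, 12.8 and 13.4% at the summit and 16.1, 17.8 and 18.0% at 100 bp. The other regions had 7.80% GAGAG at the summit and 10.2% at 100 bp. In the windows printed above, no core covered base 51.

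**Figure D4:**
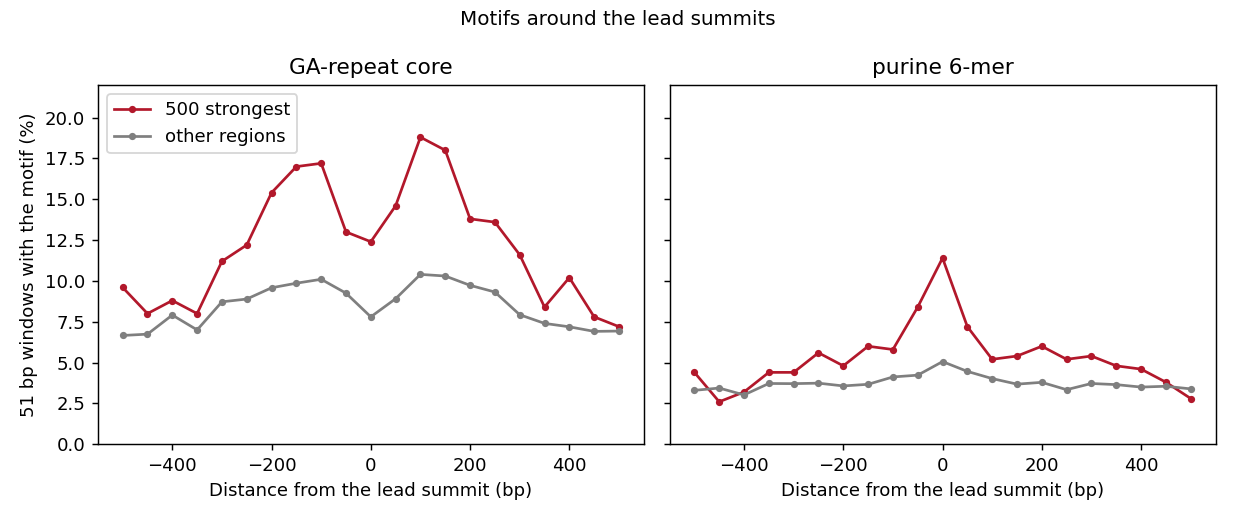
Share of 51 bp windows that hold the motif on either strand (vertical axis, percent) by distance of the window's centre from the lead summit (horizontal axis, bp), for the 500 strongest (red) and the other regions (grey). The left panel is GAGAG (GA-repeat core), which dips to 12.4% at the strong summit between higher values on both sides, and the right panel is AAGAAG (purine 6-mer), which reaches 11.4% at the strong summit.

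Motifs known from housekeeping promoters were rare. The DREF motif TATCGATA was present in 0.600% of strong and 1.13% of other windows. The core promoter motif 1 sequence GGTCACACT, bound by the factor M1BP, was present in 0 of the 500 strong windows and 0.480% of the others, and in 0, 0 and 0.200% of the replicates' strongest. In the flanks TATCGATA stood at 0.500% for strong and 0.261% for other regions, and GGTCACACT at 0.400 and 0.148%, so both were rare there too. A match or its lack describes the letters of these windows only.

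A strong lead summit in the gene or within 1 kb of it was found for 567 of 13945 protein-coding genes (4.07%), and any region for 5193 (37.2%), so 10.9% of genes with a region had a strong one. A region can serve several genes: 33.6% of strong and 30.0% of other regions lay within 1 kb of more than 1 gene. Genes with a strong region were longer, with a median span of 6.38 kb against 3.35 kb for genes with another region only and 1.74 kb for genes with none. Among genes with any region, cut at 2.21 and 6.34 kb into 3 classes of span, 7.17, 9.18 and 16.4% had a strong one, from shortest to longest.

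Several strong regions lay at 58 genes, and 20 of these had 3 or more. Psq itself had 6, at ranks 1, 15, 57, 60, 65 and 162, all in the gene whose product was tagged. Sbb, which encodes the nuclear corepressor Scribbler, also had 6, with ranks from 277 to 460. Eip75B, an early ecdysone response gene that encodes a nuclear receptor, had 5 with ranks from 27 to 412, of which 4 held GAGAG. Tara, which encodes the coregulator Taranis, had 5 with ranks from 54 to 417. Shn, which encodes the zinc finger protein Schnurri of the Dpp pathway, had 4. In the lists of replicates 1, 2 and 3, sbb had 4, 7 and 6, Eip75B 3, 5 and 5, tara 2, 5 and 5, and shn 1, 4 and 3, so replicate 1 gave the fewest for each. A further 15 genes had 3, among them InR, the translational repressor gene pum, the kinase gene Tlk, the chromatin remodeller gene kis, the corepressor gene Smr, the dioxygenase gene Tet and the HMG protein gene HmgD. All 20 genes with 3 or more were longer than the 6.34 kb mark, the shortest being l(3)L1231 at 13 kb.

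The steroid hormone ecdysone drives the larva into metamorphosis through a cascade of nuclear receptors. Of 28 genes of the ecdysone receptor and response list, 19 had a region and 9 a strong one (32.1% against 4.07% of all genes), with 9, 9 and 8 in the replicates' lists. EcR, which encodes the receptor, had strong regions at ranks 17 and 78. The first lay 175 bp from a start site and had a signal of 5239 in the optimal list and of 928, 2264 and 2082 in the replicates. The response genes followed with Eip75B at rank 27, Hr3 at 44, Hr39 at 66, br at 135, Eip78C at 242, Eip74EF at 407 and Hr4 at 427. These summits of Hr3 and Eip78C lay in the named gene, but nearest to other starts, CG46321 at 208 bp and CG43218 at 4121 bp. By the nearest start the list had 8 of 28. Of the 19, 15 were in the longest class of span.

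The list of the trithorax group, Brahma and SET complexes had 10 strong genes of 28 (35.7% against 4.07% of all genes). The replicates had 10, 9 and 10. MEP-1, whose product works with the remodeller Mi-2, stood at rank 4 with a signal of 7650, and of 1593, 3106 and 2972 in the replicates. UpSET, which encodes a SET domain protein, stood at rank 9, ash1 at 23, and kis at 93. The Brahma complex genes osa, mor and brm stood at 68, 74 and 360, Mi-2 at 202 and trx at 327. For ash1, mor, brm and Mi-2 the nearest start was that of a neighbour, CG14100, Hel89B, Arl1 and Su(Tpl), and counting only the gene with the nearest start left 6 of 28, against 3.06% (427) of all protein-coding genes. The Polycomb list had 3 of 20, namely ph-p at rank 150, jing at 164 and ph-d at 265. By the nearest start it had 4 of 20, with Psc, whose start lay 4845 bp from the region of rank 22. The GAGA-associated and insulator list had 5 of 16, with psq at rank 1, the GAGA factor gene Trl at 80, Chro at 89, pita at 263 and Cp190 at 439. The summit at Trl lay in the gene, but the nearest start was that of CG42507 at 1530 bp. Strong regions were present at 6 of 17 BTB zinc finger genes, CG3726, br, chinmo, lola, fru and jim, with 3, 6 and 5 in the replicates. Of the 15 with any region, 14 were in the longest class of span, where 16.4% of genes with any region had a strong one.

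Genes of RNA-binding proteins and translational repressors had 11 of 32 (34.4%), with 10, 10 and 11 in the replicates. Pum stood at rank 13 with a signal of 5947, brat, which encodes a partner of Pumilio in repression, at 41, the splicing regulator gene mbl at 103, how at 138, and Fmr1 and elav at 292 and 495. The summit of rank 41 lay in brat, but the nearest start was that of Polr1D at 1556 bp. Of the 28 genes with any region on this list, 24 were in the longest class of span.

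The signalling lists had from 1 to 5 genes with a strong region each, beside 4.07% of all genes and 10.9% of genes with any region. The insulin and TOR list had 5 of 26, with the receptor gene InR at rank 5 (7563 in the optimal list, and 1360, 3268 and 3030 in the replicates), sima at 91, Sesn at 208, Pdk1 at 288 and sgg at 474. The Hippo list had 4 of 19. The kinase gene wts stood at rank 6 with 7454, and 1686, 3115 and 2863 in the replicates, but its summit lay 11671 bp from the nearest protein-coding start, that of zfh1, and the polarity gene crb and the upstream genes ex and ds stood at 182, 303 and 347. The Dpp list had 4 of 21 (shn, the receptor gene wit, the Smad gene Med and the inhibitor gene Dad). The summit at Med lay outside the gene, 17 bp from the start of Mnat9. That at Dad lay in the gene, but the nearest start was that of Ns1 at 7508 bp. The Notch list had 3 of 23 (N, numb and neur) and the EGF receptor list 3 of 23 (pnt, aop and Raf). The Wingless list had 1 of 23, sgg, and 18 of its genes had a region. This is 4.35%, close to the 4.07% of all genes, and by the nearest start the list had 2. Single genes were strong on the JNK list (puc) and the JAK/STAT list (Ptp61F).

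Cell cycle genes had 4 of 31 (12.9%), with CycE at rank 279, and cell death genes 4 of 23 (17.4%), with hid at 175 and Diap1 at 421. The share over all genes was 4.07%. At Dcp-1 the region was that of the pita promoter. Heat shock genes had 2 of 18 (11.1%), Hsp27 at rank 46 and Hsp83 at 433.

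The lists of structural and terminal genes differed among themselves. Of 92 cytosolic ribosomal protein genes, 69 had a region (75%) and 1 a strong one, RpL31, whose summit lay 140 bp from the start of the neighbour CG1827. Their median best rank was 3505 over the genes with a region, against 2993 for all such protein-coding genes. Mitochondrial ribosomal protein genes had 7 of 73 (9.59% against 4.07% of all genes), all at promoters. By the nearest start the list had only 2 of 73, mRpL41 and mRpL23, beside 3.06% of all protein-coding genes. No strong region was found in or within 1 kb of 8 Hox genes, of which 5 had a region, 23 muscle structure genes (8), 122 cuticle protein genes (7) or 230 chemoreceptor and odorant-binding protein genes (11). With 4.07% of all genes as the background, 0 of 8 or of 23 is little to read from. By the nearest start the Hox list had 1 gene, Dfd, 20936 bp from the region of rank 170. The patterning and homeobox list had 2 of 44 (4.55%, close to the 4.07% of all genes), ush at rank 8 and bowl at 235. The region in ush lay 1415 bp from the start of the transcription factor gene cbt.

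**Figure D5:**
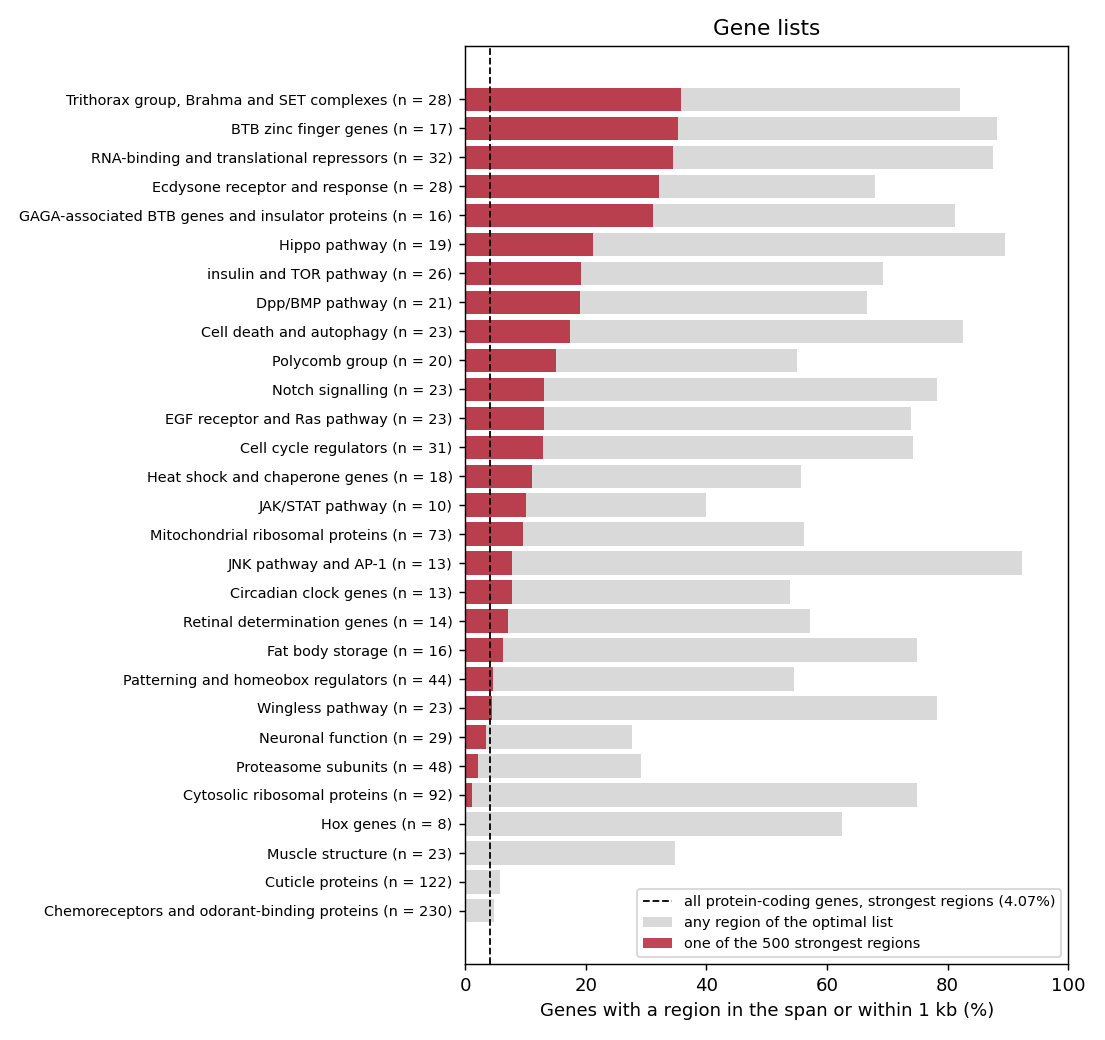
Share of each list's genes (horizontal axis, percent) with any region (grey bars) and with a strong region (red bars) in the gene or within 1 kb, for 29 lists with their sizes. The dashed line is the 4.07% of all protein-coding genes with a strong region, which 22 lists exceed. A short list exceeds it with 1 strong gene, and several do. No strong gene is on 4 lists, and the remaining lists have a strong gene but lie below the line. Among protein-coding genes with any region the share with a strong one was 10.9%.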

How the data were processed

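Chromatin immunoprecipitation and sequencing of 3 replicates was analysed from the deposited dm6 peak lists. Each deposited entry has a signal value on an unstated scale and the authors' −log10 q-value as deposited, which is 4.30 in every entry of the optimal list and was not used further. Per the labels, the lists are on dm6 and dm3; the dm3 lists and the pooled list were not used. The sources used here name no aligner, peak caller or reproducibility threshold. Overlapping entries (at least 1 bp) were merged. Each replicate's list of 30000 entries, which includes background, was cut to its 9459 highest entries for the replicate contrasts (8149, 7272 and 7576 regions). Locations followed the order promoter, UTR of the 5' side, coding exon, UTR of the 3' side, exon of another kind, intron, intergenic, from Ensembl 115 gene models on RefSeq release 6. Differences were set against the spread over 3 replicates, with an exact sign-flip permutation test. Regions are not replicates and were not tested. The 16 motifs, the 29 gene lists (by symbol, with 6 older names matched through RefSeq synonyms, none unmatched) and the members were chosen with earlier results of these data known. Named genes were psq, those at the 40 strongest regions, those with most strong regions, up to 4 of each list and those at the limit; other list members were named after their values were seen. Procedures were tested on simulated data. Tools were Python 3.11.15, pandas 2.3.3, numpy 2.4.6, matplotlib 3.10.9 and scipy 1.17.1.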

Additional observations from a re-analysis of the deposited data

How the results depend on the processing

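Of 79 alternatives, 59 left the result within its bounds, 16 moved it and 4 reversed it. The bounds were wider for the counts than for the X share. By the nearest start 427 genes, against 567, counted as within them, as did 429 shared members without replicate 1, against 321. An X share of 16.4% against 15.8% counted as moved. The intron share was 38.8% against 39.7% and turned above the other regions at 40.4% with the 250 strongest, 40.4% with entries not merged, 47% with a promoter window of 200 bp and 41.4% without replicate 1, and it was 28.6% with a window of 1000 bp. With the window of 200 bp the promoter share was 31.2% against 28.9% of the other regions, so the groups were close. With the window of 1000 bp it was 66.8% against 52.6%. GAGAG was found in 12.4% and 43.6% of windows reaching 25 and 100 bp. The X share was 14.8% with 250 regions, 17.7% with 1000, 16.6% by the worst rank over the replicates and 16.4% without the regions at psq. Genes with a strong region numbered 297 with 250 regions, 1024 with 1000 and 315 by span alone. Members among the strongest of every replicate numbered 321, and 157 and 705 with 250 and 1000 regions. Leaving out 1 replicate at a time gave promoter shares of 49 to 53.4%, intron shares of 38 to 41.4%, GAGAG shares of 20.4 to 24.4%, GC of 37.5 to 39.8%, X shares of 15.6 to 17%, distances of 514 to 715 bp, 519 to 576 genes and 331 to 429 shared members. Apart from smaller or larger windows and sets, the causes were not tested. No paired analysis was possible because the samples form 1 group and no other group shares their replicate numbers; strong and other regions were compared within each replicate. Depth is unknown, so no interval for counting error was given.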
